A study of Marchantia polymorpha with 18 samples.

Results

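The transcripts of 4 genes for WRKY transcription factors were followed across 18 RNA sequencing libraries of the liverwort Marchantia polymorpha: MpWRKY10 (Mp7g06550), MpWRKY9 (Mp7g17200), MpWRKY12 (Mp4g00200) and MpWRKY6 (Mp1g08960). They are 4 of the 14 genes with a WRKY symbol and of the 20574 genes listed, and all 4 were among the 13220 genes tested. They were chosen from values of these same libraries. MpWRKY10, MpWRKY9 and MpWRKY12 had the 3 largest wound responses of the family in wild-type Tak-1. MpWRKY6 had rank 5 there, with a log2 response of 1.78, behind MpWRKY2 with 1.92, which was not chosen. A second order took genes with a symbol that were called with a larger response in Mpdes6fad5 than in Tak-1 (limma, adjusted p under 0.05). Their wounded and mock Tak-1 libraries also had to be fully separate. MpWRKY7 had a larger difference than MpWRKY6, 1.76, but did not pass these conditions. Ordered by that difference, MpWRKY6 had rank 9 of 127 genes, and the first 10 had been singled out. That this rank is what chose it is inferred. The values just inside and just outside that limit were 1.67 and 1.64. The values that chose a gene are therefore given below as descriptions without a test.

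WRKY proteins are plant transcription factors that bind W-box motifs in DNA through a conserved domain ending in a zinc finger. In flowering plants many WRKY genes are induced within a short time by wounding and by microbes, and MAP kinases phosphorylate several of the proteins. Jasmonate signalling is another arm of the wound response: the receptor COI1 binds a jasmonate ligand and then targets JAZ repressors for degradation, and the ligands are made from polyunsaturated fatty acids.

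The plants were Mpdes6fad5, a double mutant that carries lesions in the desaturase genes MpDES6 and MpFAD5, the receptor mutant Mpcoi1, and Tak-1, the male wild-type accession against which both mutants are set here. Each genotype was sampled wounded with tweezers and after mock treatment, with 3 biological replicates per group, each of 6 to 8 plants together. Plants were grown for 3 weeks on B5 medium with 1% agar; the tissue label says leaflets, while apical fragments without gemma cups are named as the material ground. The time after wounding is given as 2 h in one label and as 90 min in another. The kind of lesion in the mutants, the number of independent mutant lines and the sex of the mutants were not given in the sources used here. No marker of leaflets was among the gene symbols used, so that label was not checked.

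Libraries held 19382332 to 26303510 reads in genes. Levels are given as CPM, a gene's reads scaled to a common library size. Where no read was found, 3 reads set the limit, which lay between 0.107 and 0.158 CPM over the libraries and covers counting error only. Means carry the SD over 3 libraries, and changes are differences of log2(CPM + 1) with their standard error (SE) from limma. CPM are not divided by transcript length, so levels are compared between groups and not between genes. In bulk tissue, a change in the number of cells that express a gene and a change in RNA per cell cannot be told apart. Among the wounded Tak-1 libraries, replicate 3 stood apart, with Pearson correlations of 0.986 and 0.988 to its mates, which had 0.995 with each other. MpCOI1 (Mp2g26590) averaged 25.1 ± 1.76 CPM in mock Mpcoi1 and 87.6 ± 3.41 CPM in mock Tak-1. MpDES6 (Mp6g17330) and MpFAD5 (Mp3g10660) averaged 46.3 ± 2.50 and 285 ± 28.7 CPM in mock Mpdes6fad5, against 68.4 ± 7.42 and 467 ± 38.5 CPM in mock Tak-1.

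All 4 genes were more abundant in every wounded library than in every mock library of the same genotype, in Mpdes6fad5, in Mpcoi1 and in Tak-1. In Tak-1 that is not an independent result, because the wound response there entered the choice of the genes. For MpWRKY6 the inferred rule required this separation in Tak-1. The share of all tested genes that separate in this way is not given here. By limma calls, 28.1% of all tested genes were higher after wounding in Mpdes6fad5, 24.5% in Mpcoi1 and 26.0% in Tak-1. For MpWRKY9 and MpWRKY10, no difference between the responses of the mutants was called. MpWRKY12 responded more in Mpdes6fad5 than in Mpcoi1. MpWRKY6 was barely detected in mock plants, and its level in wounded Mpdes6fad5 stood above that of every other library. That level is a description only, because the larger response in Mpdes6fad5 than in Tak-1 is what is inferred to have chosen MpWRKY6.

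**Figure D1:**
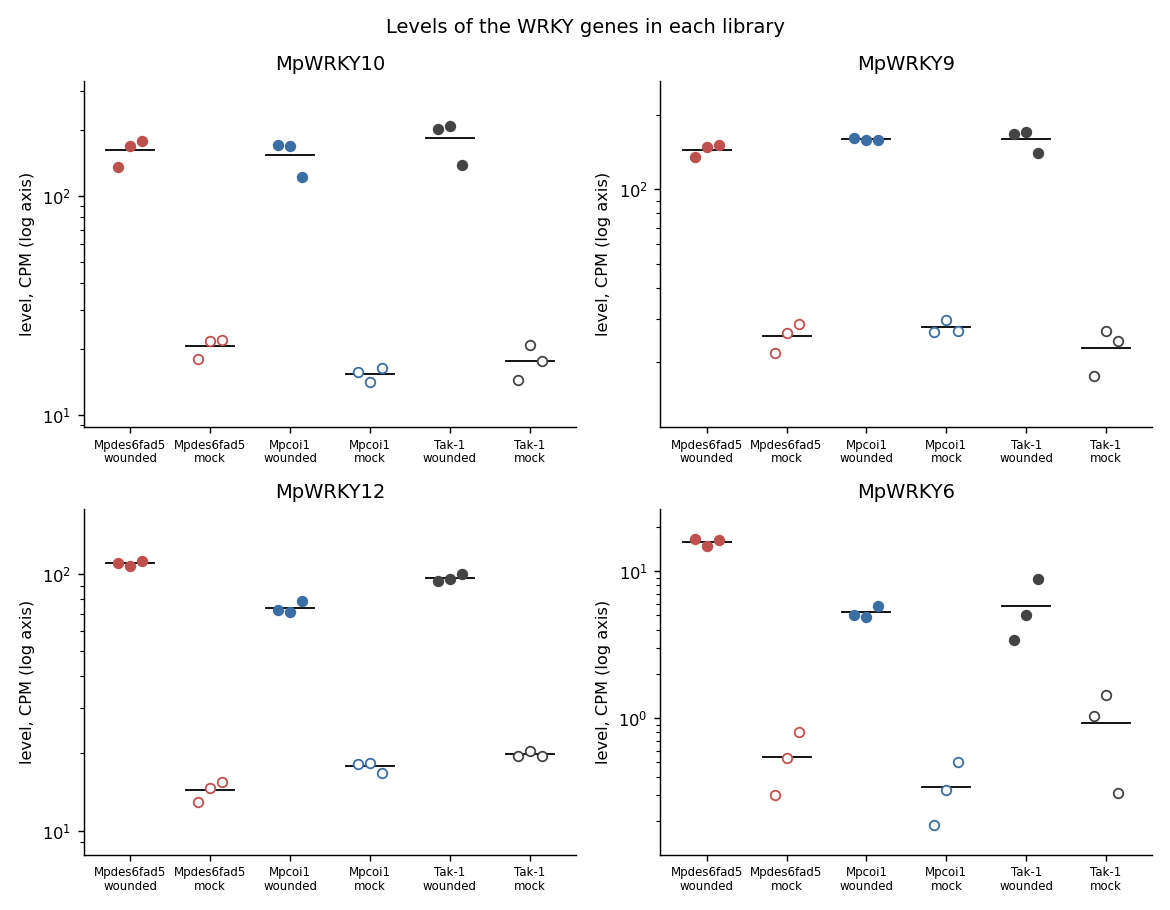
Level in CPM on a log axis, which differs between panels, for each of the 18 libraries, by genotype and treatment; filled points are wounded libraries, open points are mock libraries, and the line is the mean of 3. All wounded libraries lie above all mock libraries of the same genotype for the 4 genes, and the 3 wounded Mpdes6fad5 libraries of MpWRKY6, at 14.8 to 16.6 CPM, lie above the rest. The Tak-1 responses entered the choice of the genes, and for MpWRKY6 so did, as inferred, the Mpdes6fad5 response.

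MpWRKY10 had 136, 169.7 and 179 CPM in the wounded Mpdes6fad5 libraries, against 17.9, 21.7 and 21.8 CPM in the mock ones. In Mpcoi1 it had 170.3, 169 and 122 CPM in wounded libraries, against 15.7, 14.1 and 16.4 CPM in mock ones. In Tak-1 it had 203, 209 and 139 CPM in wounded libraries, against 14.4, 20.8 and 17.5 CPM in mock ones. The wounded libraries of the 3 genotypes overlapped, as did mock libraries of neighbouring genotypes in the order of means, Mpdes6fad5, Tak-1 and Mpcoi1. Replicate by replicate, wounded Mpcoi1 was below the wounded Tak-1 library of the same number in all 3 cases. This order was not tested, since the numbers were not taken to pair the samples and the Tak-1 values entered the choice. The mean in wounded plants was 7.88 times the mock mean in Mpdes6fad5, 9.99 times in Mpcoi1 and 10.5 times in Tak-1. The rise was 2.91 ± 0.16 on the log2 scale in Mpdes6fad5 (limma, adjusted p = 3.86e-11) and 3.22 ± 0.16 in Mpcoi1 (limma, adjusted p = 9.57e-12). In Tak-1, where the gene was chosen, the response was 3.31 ± 0.16. It stood 173rd of all tested genes by signed response in Mpdes6fad5, 71st in Mpcoi1 and 86th in Tak-1. The responses of Mpdes6fad5 and Mpcoi1 differed by -0.31 ± 0.23, with a 95% interval of -0.80 to 0.18 (limma, adjusted p = 0.394). No difference was called, and values within that interval remain possible.

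MpWRKY9 had 135, 148 and 151 CPM in wounded Mpdes6fad5, against 21.8, 26.2 and 28.5 CPM in mock Mpdes6fad5. In Mpcoi1 the values were 161, 159 and 158 CPM in wounded libraries, against 26.5, 29.8 and 26.9 CPM in mock ones. In Tak-1 they were 167, 171 and 141 CPM in wounded libraries, against 17.6, 26.8 and 24.4 CPM in mock ones. Wounded Mpdes6fad5 libraries all lay below the wounded Mpcoi1 libraries, and wounded Tak-1 libraries overlapped both. The mean levels of wounded Mpcoi1, at 159 ± 1.26 CPM, and of wounded Tak-1, at 159.6 ± 16.6 CPM, differed by less than the SD of Tak-1. The gene rose by 2.47 ± 0.12 in Mpdes6fad5 (limma, adjusted p = 4.84e-12) and by 2.48 ± 0.12 in Mpcoi1 (limma, adjusted p = 4.78e-12), beside a response of 2.76 ± 0.12 in Tak-1. The difference between the 2 mutants' responses was -0.02 ± 0.17, with a 95% interval of -0.37 to 0.34 (limma, adjusted p = 0.962). In ratios of mean CPM, the wounded level was 5.68 times the mock level in Mpdes6fad5, 5.74 times in Mpcoi1 and 6.96 times in Tak-1.

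MpWRKY12 had 111, 107 and 112 CPM in wounded Mpdes6fad5, against 12.9, 14.6 and 15.5 CPM in mock Mpdes6fad5. In Mpcoi1 it had 72.5, 71.1 and 78.2 CPM in wounded libraries, against 18.2, 18.4 and 16.8 CPM in mock ones. In Tak-1 it had 94.4, 95.4 and 99.9 CPM in wounded libraries, against 19.5, 20.5 and 19.6 CPM in mock ones. No neighbouring groups overlapped: from the top, the order was wounded Mpdes6fad5, wounded Tak-1, wounded Mpcoi1, mock Tak-1, mock Mpcoi1 and mock Mpdes6fad5. Mpdes6fad5 was thus the lowest of the genotypes in mock plants and the highest in wounded plants. This order was not tested, because its Tak-1 libraries entered the choice of the gene. The share of all tested genes with such an order is not given here. The gene rose by 2.86 ± 0.07 in Mpdes6fad5 (limma, adjusted p = 2.47e-16) and by 2.00 ± 0.07 in Mpcoi1 (limma, adjusted p = 2.11e-14), beside a response of 2.22 ± 0.07 in Tak-1. The response in Mpdes6fad5 exceeded that in Mpcoi1 by 0.87 ± 0.09 (limma, adjusted p = 2.98e-06). As ratios of mean CPM these responses were 7.68 times in Mpdes6fad5, 4.15 times in Mpcoi1 and 4.86 times in Tak-1.

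MpWRKY6 had 16.6, 14.8 and 16.3 CPM in wounded Mpdes6fad5, against 0.302, 0.534 and 0.800 CPM in mock Mpdes6fad5. In Mpcoi1 it had 5.08, 4.91 and 5.78 CPM in wounded libraries, against 0.189, 0.325 and 0.500 CPM in mock ones. In Tak-1 it had 3.43, 5.07 and 8.89 CPM in wounded libraries, against 1.03, 1.44 and 0.310 CPM in mock ones. The wounded Mpdes6fad5 libraries stood above all others, wounded Tak-1 and wounded Mpcoi1 overlapped, and the 3 mock groups overlapped. The mock values rested on few reads: 8, 15 and 17 in Mpdes6fad5, 5, 8 and 12 in Mpcoi1, and 20, 36 and 7 in Tak-1. All were above the limit of 3 reads. The gene rose by 2.23 ± 0.24 in Mpcoi1 (limma, adjusted p = 3.56e-07), in libraries that did not enter its choice. The responses that chose it were 3.46 ± 0.24 in Mpdes6fad5 and 1.78 ± 0.24 in Tak-1, a difference of 1.68 ± 0.34. The difference between the responses of Mpdes6fad5 and Mpcoi1, which holds one of these values, was 1.23 ± 0.34.

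For MpWRKY6 the scale mattered, because the constant of 1 CPM is larger than most of its mock levels. In ratios of mean CPM, the wounded level was 29.1 times the mock level in Mpdes6fad5, 15.5 times in Mpcoi1 and 6.23 times in Tak-1. With a constant of 0.1 CPM the log2 responses were 4.71 ± 0.42 in Mpdes6fad5 and 2.61 ± 0.42 in Tak-1, and with a constant of 5 CPM they were 1.91 ± 0.12 in Mpdes6fad5 and 0.84 ± 0.12 in Tak-1. The response in Mpdes6fad5 was the largest of the 3 on each of these scales. The highest wounded Tak-1 value, 8.89 CPM, came from replicate 3, the library that stood apart. Without it the Tak-1 response was 1.47 ± 0.21, and the difference of Mpdes6fad5 from Tak-1 was 1.99 ± 0.29.

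**Figure D2:**
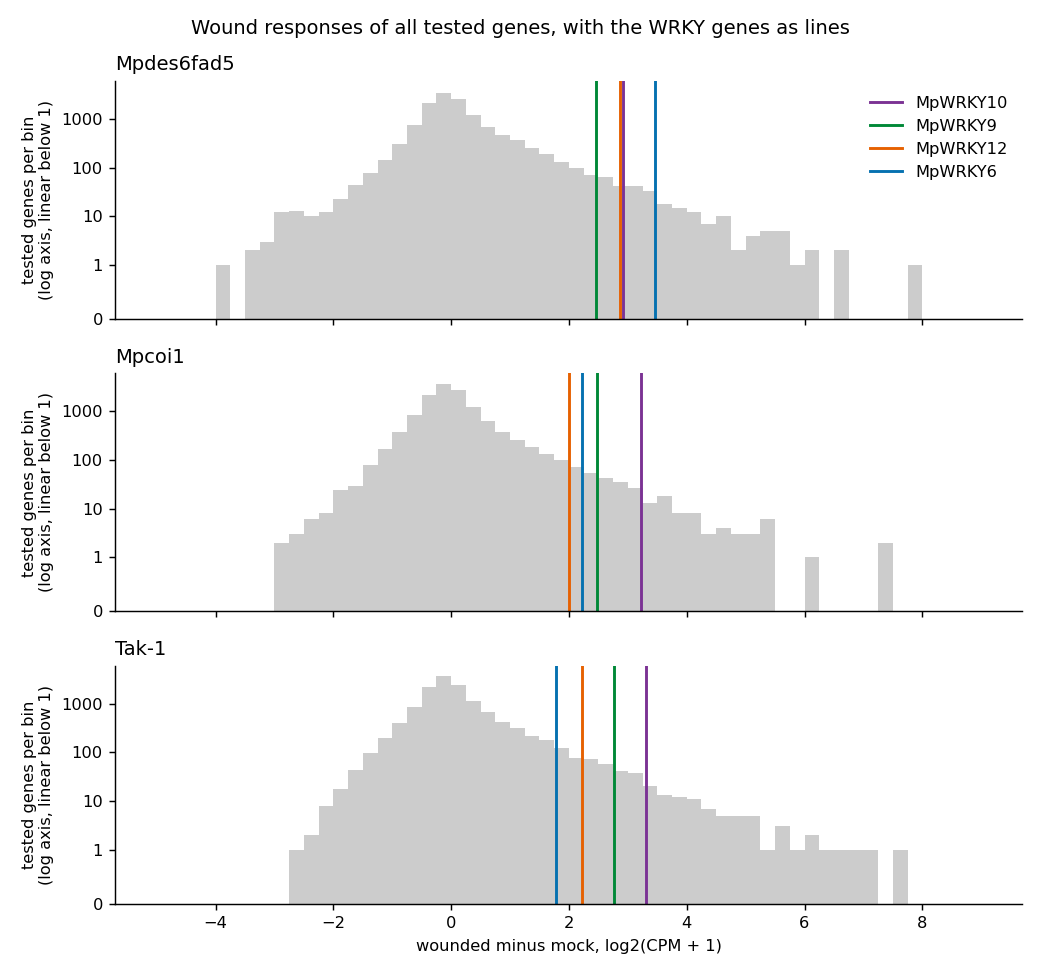
Number of tested genes (log axis, linear below 1) by wound response in log2(CPM + 1) units, in bins of 0.25, for Mpdes6fad5, Mpcoi1 and Tak-1, with coloured lines at the responses of the 4 WRKY genes. The lines lie between 2.47 and 3.46 in Mpdes6fad5, between 2.00 and 3.22 in Mpcoi1 and between 1.78 and 3.31 in Tak-1, in the upper tail in each case.

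Of all tested genes, 28.1% were called higher and 28.9% lower after wounding in Mpdes6fad5, 24.5% higher and 28.5% lower in Mpcoi1, and 26.0% higher and 30.6% lower in Tak-1 (limma, Benjamini-Hochberg adjusted p under 0.05). With library totals the calls were 3118 higher and 5159 lower in Mpdes6fad5 and 2894 higher and 5373 lower in Tak-1, and with quantile normalization 3016 higher and 5606 lower in Mpdes6fad5 and 2906 higher and 5232 lower in Tak-1. In Mpcoi1 they were 2796 higher and 4659 lower with library totals and 2774 higher and 4632 lower with quantile normalization, against 3234 and 3765. A call alone therefore says little about these genes. By signed size, the lowest rank of the 4 among the 13220 tested genes was 273 in Mpdes6fad5 (MpWRKY9), 301 in Mpcoi1 (MpWRKY12) and 483 in Tak-1 (MpWRKY6). The median response of all tested genes was -0.03 in Mpdes6fad5, -0.05 in Mpcoi1 and -0.06 in Tak-1.

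The receptor mutant was set against Tak-1 next. MpJAZ (Mp6g06230), the JAZ repressor gene and a transcript that the pathway itself raises, responded by 0.55 ± 0.09 in Mpcoi1 and by 2.62 ± 0.09 in Tak-1, a difference of -2.07 ± 0.13 (limma, adjusted p = 1.79e-09). The mock level of MpJAZ was also lower in Mpcoi1 than in Tak-1, by -0.64 ± 0.09 (limma, adjusted p = 2.42e-04). The differences of response, Mpcoi1 from Tak-1, were -0.08 ± 0.23 for MpWRKY10, -0.28 ± 0.17 for MpWRKY9, -0.23 ± 0.09 for MpWRKY12 and 0.45 ± 0.34 for MpWRKY6. These 4 values hold the Tak-1 responses that chose the genes, or a part of them, and so carry no p here. Without wounded Tak-1 replicate 3, that of MpWRKY6 was 0.76 ± 0.29. Of all tested genes, 7.57% were called in this difference. None of the 9 other WRKY genes was called in it (limma), none had an unadjusted p under 0.05, and voom on recovered reads called none either. For so few genes, a count of 0 of 9 is near the share of all tested genes, so it says little about the family.

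The same differences for Mpdes6fad5 against Tak-1 were -0.39 ± 0.23 for MpWRKY10, -0.30 ± 0.17 for MpWRKY9 and 0.64 ± 0.09 for MpWRKY12, beside 1.68 for MpWRKY6. MpJAZ, at 2.61 ± 0.09 in Mpdes6fad5, differed from Tak-1 by -0.01 ± 0.13 (limma, adjusted p = 0.979). Its level was lower in Mpdes6fad5 all the same: in mock plants by -0.53 ± 0.09 (limma, adjusted p = 1.70e-04). In wounded plants it averaged 120 ± 2.40 CPM in Mpdes6fad5 and 174 ± 18.7 CPM in Tak-1. The 4 genes thus lay on both sides of 0, with MpWRKY12 and MpWRKY6 above and the other two below. Of all tested genes, 14.8% were called in this difference, 987 higher and 974 lower, which became 840 higher and 1246 lower with median-of-ratios scaling. In the difference of Mpdes6fad5 from Mpcoi1, 18.3% were called, 1344 higher and 1075 lower, which became 1171 higher and 1537 lower with quantile normalization.

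**Figure D3:**
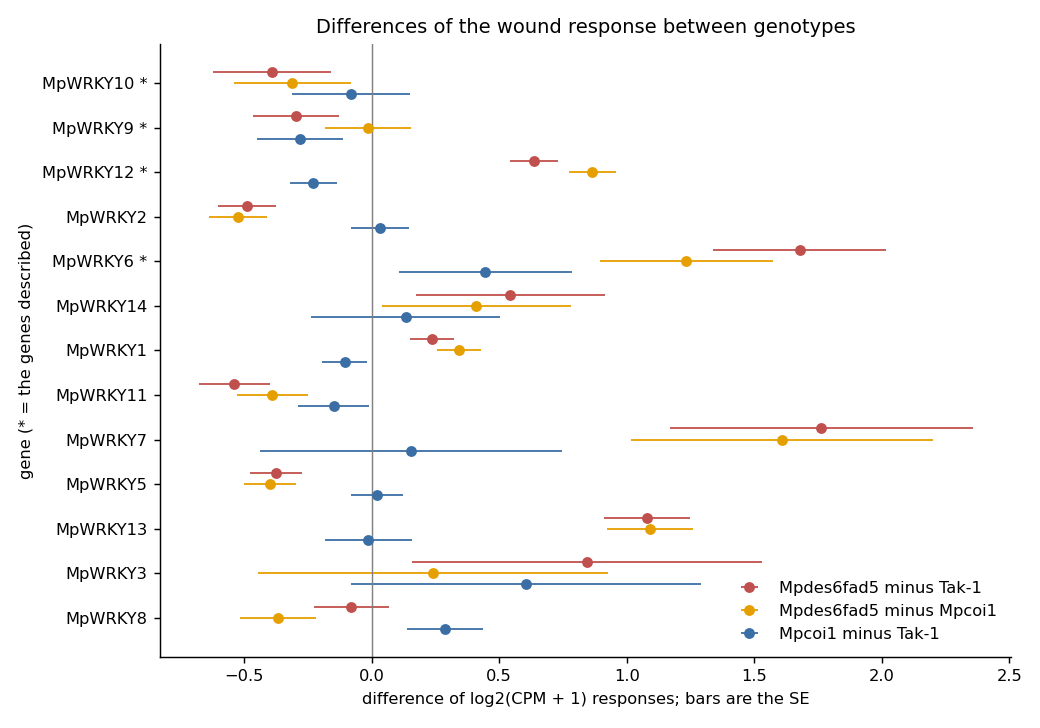
Difference between genotypes of the wound response, in log2(CPM + 1) units with the SE as bars, for the 13 WRKY genes tested, ordered by their response in Tak-1; the asterisk marks the 4 genes described. MpWRKY6 and MpWRKY12 lie above 0 in both differences that involve Mpdes6fad5 (1.68 and 1.23 for MpWRKY6), as do MpWRKY1, MpWRKY3, MpWRKY7, MpWRKY13 and MpWRKY14. Both differences use the same Mpdes6fad5 libraries.

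In mock plants, MpWRKY12 averaged 14.4 ± 1.33 CPM in Mpdes6fad5, 17.8 ± 0.905 CPM in Mpcoi1 and 19.9 ± 0.568 CPM in Tak-1. Set against mock Mpcoi1, mock Mpdes6fad5 had less of it, by -0.29 ± 0.07 (limma, adjusted p = 0.00201). The mock Tak-1 libraries entered the responses that chose all 4 genes, so differences from mock Tak-1 are given without a test. For MpWRKY12 they were -0.45 ± 0.07 in Mpdes6fad5 and -0.15 ± 0.07 in Mpcoi1, and in both the libraries did not overlap those of Tak-1. Of all tested genes, 37.9% were called between mock Mpdes6fad5 and mock Tak-1, 32.8% between mock Mpdes6fad5 and mock Mpcoi1, and 6.66% between mock Mpcoi1 and mock Tak-1. The calls against Tak-1 were 2318 higher and 2698 lower, but 4518 higher and 1608 lower with library totals, and those against Mpcoi1 were 2088 higher and 2243 lower, but 3605 higher and 1430 lower with library totals. MpWRKY12 was called lower than in Mpcoi1 under that scaling too.

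Between mock Mpdes6fad5 and mock Mpcoi1, MpWRKY10 differed by 0.39 ± 0.16 (limma, adjusted p = 0.0785). This value was called when only these 2 groups were fitted (adjusted p = 0.01002), with library totals (adjusted p = 0.0193), and when wounded Tak-1 replicate 3 was left out (adjusted p = 0.0327). MpWRKY9 differed by -0.12 ± 0.12 (limma, adjusted p = 0.472). For MpWRKY6, whose choice used the mock Mpdes6fad5 libraries as well, the difference was 0.20 ± 0.24, without a test. The untested differences of mock Mpdes6fad5 from mock Tak-1 were 0.22 ± 0.16 for MpWRKY10, 0.16 ± 0.12 for MpWRKY9 and -0.29 ± 0.24 for MpWRKY6. Those of mock Mpcoi1 from mock Tak-1 were -0.17 ± 0.16 for MpWRKY10, 0.28 ± 0.12 for MpWRKY9 and -0.49 ± 0.24 for MpWRKY6.

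The rest of the family gave a measure of how far these patterns were shared. Of the 10 other WRKY genes, 9 were tested, and MpWRKY4 (Mp2g05160) was left out with reads in 2 libraries only. After wounding, 7 of the 9 rose and 1 fell in Mpdes6fad5, where 28.1% of all tested genes rose and 28.9% fell. In Mpcoi1 7 rose and 0 fell, beside 24.5% and 28.5% of all genes, and in Tak-1 6 rose and 1 fell, beside 26.0% and 30.6%. In Mpcoi1 no other WRKY gene fell at an unadjusted p under 0.05 either, nor with voom. Their median response was 1.30 in Mpdes6fad5, 0.92 in Mpcoi1 and 0.94 in Tak-1. MpWRKY2 (Mp8g10640) was the steepest of them in Mpcoi1 and Tak-1, at 1.95 ± 0.08 and 1.92 ± 0.08, and MpWRKY8 (Mp2g20960) was the 1 that fell, by -0.41 ± 0.10 in Mpdes6fad5 (limma, adjusted p = 0.00279) and by -0.33 ± 0.10 in Tak-1 (limma, adjusted p = 0.0124, and 0.0784 without mock Tak-1 replicate 1). MpWRKY7 (Mp3g17660) rose by 2.70 ± 0.42 in Mpdes6fad5 (limma, adjusted p = 2.56e-05) and by 1.09 ± 0.42 in Mpcoi1 (limma, adjusted p = 0.0363). That call in Mpcoi1 was lost in 8 alternatives, among them 5 that left out 1 of the Mpcoi1 libraries, with adjusted p of 0.0563 to 0.105.

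**Figure D4:**
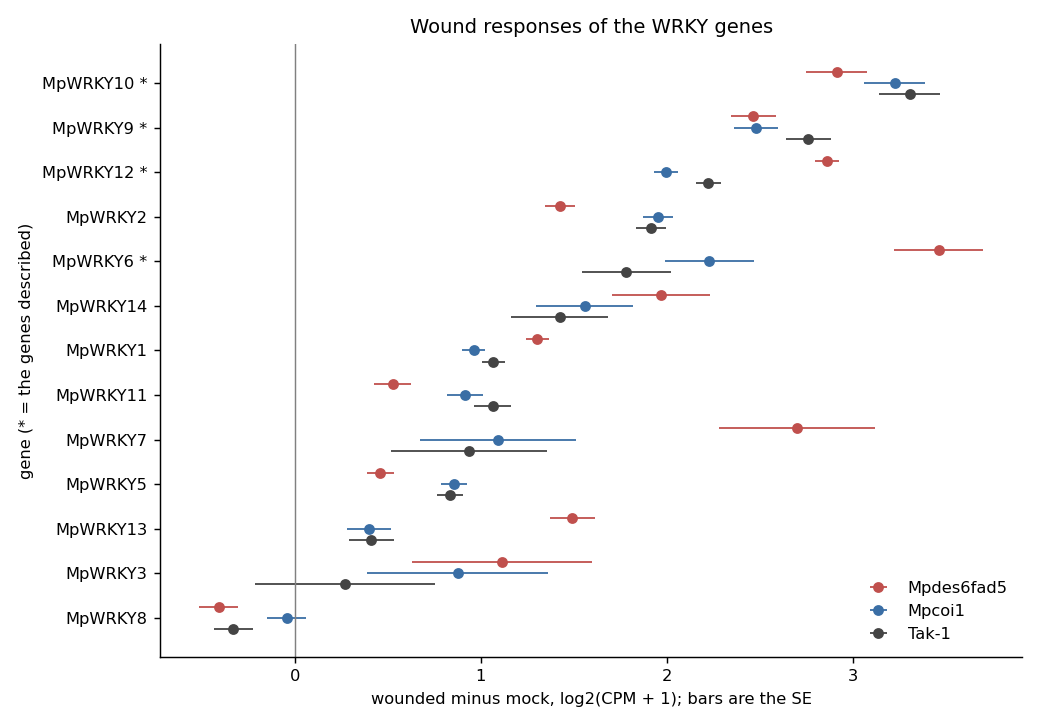
Wound response in log2(CPM + 1) units with the SE as bars, in Mpdes6fad5, Mpcoi1 and Tak-1, for the 13 WRKY genes tested, ordered by their response in Tak-1; the asterisk marks the 4 genes described. MpWRKY6, MpWRKY7, MpWRKY12, MpWRKY13, MpWRKY1, MpWRKY3 and MpWRKY14 have their highest response in Mpdes6fad5 (3.46, 2.70, 2.86, 1.49, 1.30, 1.11 and 1.97). MpWRKY2, MpWRKY5, MpWRKY11, MpWRKY8, MpWRKY9 and MpWRKY10 have their lowest there (1.43, 0.46, 0.53, -0.41, 2.47 and 2.91). Not all of these differences between genotypes were called.

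Of the 9 other WRKY genes, 1 had a larger and 3 a smaller response in Mpdes6fad5 than in Tak-1, and 2 had a larger and 2 a smaller response than in Mpcoi1. Among all tested genes, 7.47% had a larger and 7.37% a smaller response than in Tak-1, and 10.2% a larger and 8.13% a smaller response than in Mpcoi1. The smaller ones against Tak-1 were MpWRKY2, at -0.49 ± 0.11 (limma, adjusted p = 0.00760), MpWRKY11 (Mp1g24950), at -0.54 ± 0.14 (limma, adjusted p = 0.0144), and MpWRKY5 (Mp1g08890), at -0.37 ± 0.10 (limma, adjusted p = 0.0187). The call of MpWRKY5 was lost without wounded Tak-1 replicate 1 (adjusted p = 0.0526) or mock Mpdes6fad5 replicate 3 (adjusted p = 0.0532). MpWRKY13 (Mp4g00180) was the 1 with a larger response than in Tak-1, and MpWRKY13 and MpWRKY1 (Mp3g00010) were the 2 with a larger response than in Mpcoi1. MpWRKY1 differed from Mpcoi1 by 0.34 ± 0.09 (limma, adjusted p = 0.0103). Without wounded Tak-1 replicate 3, 4 genes in place of 1 were called larger in Mpdes6fad5 than in Tak-1, with MpWRKY7, MpWRKY3 (Mp5g05560) and MpWRKY1 added to MpWRKY13. MpWRKY7 then differed by 2.47 (limma, adjusted p = 2.23e-04), against 1.76 ± 0.59 with all libraries (limma, adjusted p = 0.0539).

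Among the other WRKY genes in mock plants, 2 were higher and 2 lower in Mpdes6fad5 than in Tak-1, and 2 were higher and 1 lower than in Mpcoi1. These counts of 4 and 3 of 9 genes are near the shares of all tested genes called, 37.9% and 32.8%. MpWRKY8 was higher, by 0.62 ± 0.10 against Tak-1 and by 0.88 ± 0.10 against Mpcoi1 (limma, adjusted p = 1.63e-04 and 5.36e-06). MpWRKY2 was higher by 0.28 ± 0.08 against Tak-1 and by 0.25 ± 0.08 against Mpcoi1 (limma, adjusted p = 0.0103 and 0.0220). The first of these 2 calls was lost without mock Tak-1 replicate 1 (adjusted p = 0.0667) or mock Mpdes6fad5 replicate 2 (0.0587), and the second without mock Mpcoi1 replicate 3 (0.130) or mock Mpdes6fad5 replicate 1 (0.0575) or 2 (0.107). MpWRKY14 (Mp6g16800) was lower than in Tak-1 by -0.99 ± 0.26 (limma, adjusted p = 0.00625), and MpWRKY13 was lower in both comparisons. Between mock Mpcoi1 and mock Tak-1 none was called (limma), 3 were lower at an unadjusted p under 0.05, and MpWRKY14, at -0.88 ± 0.26, was nearest the threshold (limma, adjusted p = 0.0517). It was called in 9 of 29 alternatives, with adjusted p of 0.0188 to 0.0496, among them a constant of 0.1 CPM, quantile normalization and 6 that left out a library.

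MpWRKY13 is a close neighbour of MpWRKY12, with a single listed gene between them in the order of the identifiers, and it was tested in full because it was not among the genes chosen. It had 35.3, 41.3 and 34.9 CPM in wounded Mpdes6fad5, against 11.1, 12.9 and 13.8 CPM in mock Mpdes6fad5. In Mpcoi1 it had 30.7, 28.1 and 31.8 CPM in wounded libraries, against 24.3, 20.9 and 22.8 CPM in mock ones. In Tak-1 it had 24.4, 24.6 and 35.3 CPM in wounded libraries, against 19.2, 20.7 and 21.9 CPM in mock ones. As with MpWRKY12, all 3 mock Mpdes6fad5 libraries were below every other library. Its mock level in Mpdes6fad5 was below that in Tak-1, by -0.67 ± 0.12 (limma, adjusted p = 2.61e-04), and below that in Mpcoi1, by -0.80 ± 0.12 (limma, adjusted p = 5.64e-05). Its response was larger in Mpdes6fad5 than in Tak-1, by 1.08 ± 0.17 (limma, adjusted p = 3.95e-04), and than in Mpcoi1, by 1.09 ± 0.17 (limma, adjusted p = 1.71e-04). These differences hold the same mock Mpdes6fad5 libraries as the lower mock level, so they are not independent of it. In wounded plants, the Mpdes6fad5 libraries, at 34.9 to 41.3 CPM, overlapped those of Tak-1, at 24.4 to 35.3 CPM, and lay above those of Mpcoi1. The gene between them, Mp4g00190, averaged 0.187 CPM over all libraries and was not tested. The gene on the other side of MpWRKY12, Mp4g00210, responded by -0.28 in Mpdes6fad5 (limma, adjusted p = 0.00253), 0.05 in Mpcoi1 (limma, adjusted p = 0.567) and -0.06 in Tak-1 (limma, adjusted p = 0.509). How reads that match both WRKY genes were counted was not given in the sources used here, so the pair is uncertain in that respect.

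**Figure D5:**
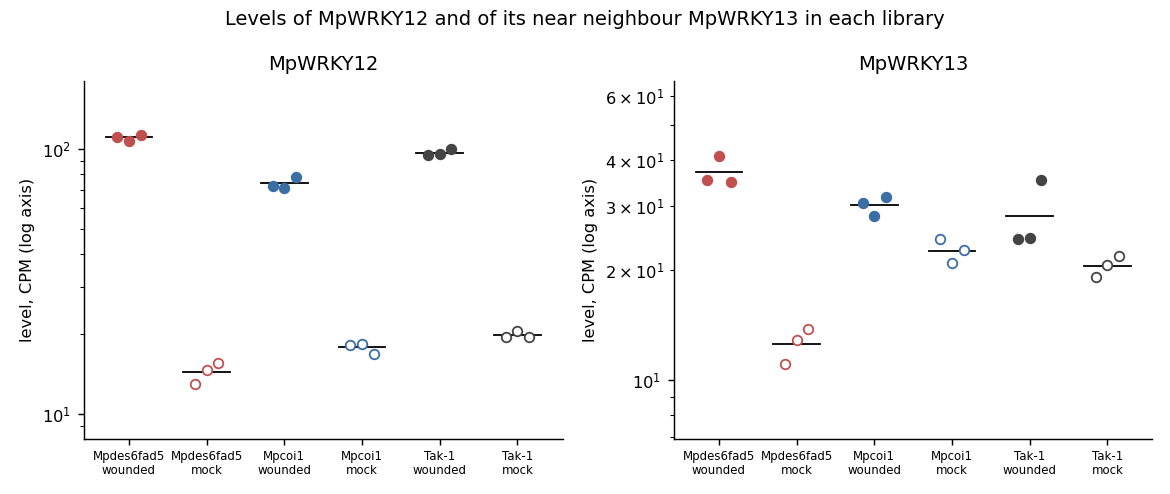
Level in CPM on log axes that differ between panels, for each of the 18 libraries, of MpWRKY12 and MpWRKY13; filled points are wounded libraries, open points are mock libraries, and the line is the mean of 3. In both genes the mock Mpdes6fad5 libraries are the lowest of all, at 12.9 to 15.5 CPM for MpWRKY12 and 11.1 to 13.8 CPM for MpWRKY13.

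The MAP kinase cascade, whose kinases phosphorylate WRKY proteins in flowering plants, moved in both directions. Of 33 listed genes, 29 were tested. After wounding 14 rose and 5 fell in Mpdes6fad5, 13 rose and 5 fell in Mpcoi1, and 15 rose and 5 fell in Tak-1, where 28.1%, 24.5% and 26.0% of all tested genes rose and 28.9%, 28.5% and 30.6% fell, in the same order of genotypes. Their median response was 0.25 in Mpdes6fad5, 0.14 in Mpcoi1 and 0.22 in Tak-1, beside -0.03, -0.05 and -0.06 for all genes. In Mpcoi1 the largest rises were those of MpMAPKKK6 (Mp2g17410), at 1.64 ± 0.26, and MpMAPKKK16 (Mp7g02280), at 1.58 ± 0.11, and the largest falls those of MpMAPKKK3 (Mp2g01980), at -0.83 ± 0.07, and MpMAPKKK19 (Mp7g16360), at -0.26 ± 0.07 (limma, adjusted p = 3.14e-05, 8.95e-10, 7.62e-09 and 0.00531).

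The genes most like each WRKY gene across the 18 libraries were taken by Pearson correlation of log2(CPM + 1), among genes with a symbol outside the family. The libraries share the contrast of wounding, so high values are common: 1117 of 13219 genes reached 0.9 with MpWRKY10, 1066 with MpWRKY9, 994 with MpWRKY12 and 459 with MpWRKY6. In the same order, 606, 561, 412 and 66 genes reached 0.95. Closest to MpWRKY10 were MpABCG31 (Mp8g09300), of the ABC transporters, MpGRAS4 (Mp2g03850), of the GRAS regulators, and the protein phosphatase gene MpPP2C_G (Mp6g03430), with 0.996, 0.995 and 0.994. Closest to MpWRKY9 were MpMATE7 (Mp3g04300), of the MATE transporters, the cytochrome P450 gene MpCYP710A16 (Mp1g00490) and the bZIP factor gene MpBZIP9 (Mp6g03920), with 0.994, 0.994 and 0.993. MpWRKY12 was most like MpHA8 (Mp4g06820), of the proton-pumping ATPases, MpERF21 (Mp5g22160), of the AP2/ERF factors, and MpGH16.7 (Mp2g17810), of a family of cell wall enzymes, with 0.990, 0.989 and 0.989. The correlation does not measure the size of a response: in Mpdes6fad5, MpERF21 responded by 7.91 and MpWRKY12 by 2.86. MpWRKY6 was most like the dirigent gene MpDIR26 (Mp5g00530), MpRDR5/6-2 (Mp8g14970), of the RNA-dependent RNA polymerases, and the receptor-like kinase gene MpRLK-Pelle_WAK_LRK10L-1 (Mp3g07330), with 0.967, 0.965 and 0.963. Within the family, MpWRKY9 and MpWRKY10 were each other's closest, at 0.989, and MpWRKY1 was closest to both MpWRKY12, at 0.985, and MpWRKY6, at 0.966.

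Markers of other cell types were read beside these results. The summed level of the 4 oil body markers found among 6 symbols was 137 to 146 CPM in wounded and 93.2 to 95.4 CPM in mock Mpdes6fad5, 86.5 to 90.9 CPM in wounded and 78.1 to 89.0 CPM in mock Mpcoi1, and 152 to 217 CPM in wounded and 80.6 to 98.1 CPM in mock Tak-1. The sum was carried by MpC1HDZ, while MpSYP12B, MpERF13 and MpABCG1 had lower means in wounded than in mock plants of each genotype. The 4 male germline markers found among 6 symbols summed to 8.70 to 12.3 CPM in wounded and 4.68 to 5.18 CPM in mock Mpdes6fad5. The sums were 6.23 to 9.87 CPM in wounded and 3.66 to 3.96 CPM in mock Mpcoi1. In Tak-1 they were 4.70 to 8.18 CPM in wounded and 4.05 to 5.84 CPM in mock plants. MpPRM and MpLC7 were at or near 0. MpDUO1 had higher means in wounded than in mock plants of each genotype. The mean of MpGEX2 was higher in wounded than in mock Mpdes6fad5 (5.94 against 4.17 CPM). It was lower in wounded than in mock Mpcoi1 (2.86 against 3.01 CPM) and Tak-1 (2.39 against 4.01 CPM). MpGCAM1, the 1 gemma cup marker found among 3 symbols, had 1.53 to 2.32 CPM in wounded and 0 to 0.143 CPM in mock Mpdes6fad5, 0 to 0.267 CPM in wounded and 0 CPM in mock Mpcoi1, and 1.90 to 5.10 CPM in wounded and 0.517 to 1.40 CPM in mock Tak-1. The rhizoid markers matched no symbol. The part of these cell types in the WRKY levels was not tested.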

How the data were processed

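The authors deposited a table of log2 values per gene; per the submitters' processing notes the tools were Trim Galore, HISAT2, HTSeq and edgeR. Their versions, the genome build and the strand setting were not given in the sources used here. All 18 columns were matched to samples by title. Every column shared a floor of -3.50 (0.0886 CPM); CPM was 2 to the power of the value minus that floor. Read counts recovered from the steps were whole within 0.01 for all values up to 1000 reads. Genes with CPM of at least 1 in at least 3 libraries, 13220 of 20574, entered a model on the log2(CPM + 1) scale (limma 3.58.1, R 4.3.3) with one mean per group over 18 libraries and no block, eBayes with trend, Benjamini-Hochberg adjustment over all tested genes, called under 0.05. The constant of 1 CPM shrinks changes of weakly expressed genes. The fit was also run on simulated data, with the same spread for all genes and changes in a single group. Those settings differ from the data here and the outcome is not given, so that run lends no support to the results. Python 3.11.15, pandas 2.3.3, numpy 2.4.6 and matplotlib 3.10.9 were used for tables and figures.

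Symbols came from the MpTak2_v7.1 table (17641 identifiers matched, 3091 with a symbol), used for names and gene order. Groups came from the sample titles. The genes, lists and tests were chosen with earlier results of these data known. Tests were planned for the mock comparisons with Tak-1, and for MpWRKY6 in Mpdes6fad5; these share libraries with the values that chose the genes and were left untested. Named genes were the 4, the other WRKY genes called in a mutant response, difference or mock comparison, the 3 most correlated genes for each, and 4 MAP kinase cascade genes; a few neighbouring genes were named after their values were seen. The alternatives changed the constant (0.1 or 5 CPM), the filter (none, or mean CPM of 5 or more), the scaling (library totals, median-of-ratios, quantile), the weights (voom on recovered reads), the moderation (robust eBayes), the groups fitted, the block (replicate number) and the libraries (each left out in turn).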

Additional observations from a re-analysis of the deposited data

Results flagged for a closer look

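Wound responses that differed between genotypes by a test of the difference (limma, Benjamini-Hochberg adjusted p under 0.05) are listed here for WRKY genes whose choice did not use that difference. MpWRKY12 responded more in Mpdes6fad5 than in Mpcoi1, by 0.87. MpWRKY13 responded more in Mpdes6fad5 than in Tak-1, by 1.08, and than in Mpcoi1, by 1.09. MpWRKY1 responded more in Mpdes6fad5 than in Mpcoi1, by 0.34. MpWRKY2 responded less in Mpdes6fad5, with differences of -0.49 from Tak-1 and -0.52 from Mpcoi1. MpWRKY5 did so as well, with -0.37 from Tak-1 and -0.40 from Mpcoi1, and MpWRKY11 with -0.54 from Tak-1. The differences from Tak-1 and from Mpcoi1 share the Mpdes6fad5 libraries. The mock levels of MpWRKY12, MpWRKY13 and MpWRKY2 were also called different in Mpdes6fad5. Their differences of response hold those same mock libraries, so these results are not independent.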

How the results depend on the processing

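For the 4 genes and 9 comparisons, 999 of 1035 recomputed values kept their side of the threshold or, where untested, moved by less than the replicate spread. None of the tested calls was lost or changed direction. Values that were not called could change sign: the difference between the Mpdes6fad5 and Mpcoi1 responses of MpWRKY9 lay between -0.12 and 0.07. With a constant of 0.1 CPM, MpWRKY6 had responses of 4.71 in Mpdes6fad5 and 2.61 in Tak-1, and its response exceeded that in Tak-1 by 2.09 in Mpdes6fad5 and by 1.06 in Mpcoi1. With 5 CPM these 4 values, in that order, were 1.91, 0.84, 1.08 and 0.10, and with voom 4.95, 2.78, 2.17 and 1.21, with a mock difference of Mpdes6fad5 from Tak-1 of -0.64. With 5 CPM the Tak-1 responses of MpWRKY9, MpWRKY10 and MpWRKY12 were 2.57, 3.05 and 2.03, and MpWRKY12 differed between Mpdes6fad5 and Tak-1 by 0.55. With quantile normalization the Tak-1 responses of MpWRKY9 and MpWRKY12 were 2.57 and 2.05, and MpWRKY12 differed by 0.78. With library totals, the Tak-1 response of MpWRKY12 was 2.12, and the mock difference of MpWRKY10 between Mpdes6fad5 and Mpcoi1 became called at 0.49. It was also called, at 0.39, with only the groups compared. The untested mock differences moved too. For MpWRKY6 that of Mpcoi1 from Tak-1 was -1.09 with 0.1 CPM, -0.15 with 5 CPM and -1.28 with voom, and that of Mpdes6fad5 from Mpcoi1 was 0.55 with 0.1 CPM and 0.64 with voom. For MpWRKY12 that of Mpdes6fad5 from Tak-1 was -0.36 with 5 CPM and -0.31 with library totals. Leaving out each library moved the Tak-1 response of MpWRKY9 between 2.59 and 2.88, its difference from Tak-1 between -0.41 and -0.12 in Mpdes6fad5 and between -0.40 and -0.11 in Mpcoi1, and its mock difference from Tak-1 between -0.012 and 0.28 in Mpdes6fad5 and between 0.11 and 0.40 in Mpcoi1. It moved the mock difference of MpWRKY10 between Mpdes6fad5 and Mpcoi1 between 0.33 and 0.48. The untested Mpcoi1 difference of MpWRKY10 from Tak-1 lay on both sides of 0, between -0.27 and 0.08. MpWRKY6 has no value under a mean of at least 5 CPM. The cause of these shifts was not tested.

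Replicate numbers were not taken to pair the samples: over 45 pairs of groups and numbers, same-numbered deviations correlated between -0.33 and 0.56, with 10 above 0.1, and 9 of 18 libraries correlated best with their own number. The exception was wounded Mpcoi1 with wounded Tak-1, where all 3 same-numbered pairs were above 0.1, between 0.163 and 0.555. The replicate block leaves differences between group means as they were. With the replicate block, 3437 genes rose and 4004 fell in Tak-1, against 3439 and 4041 without it, no call of the 4 genes changed, and MpWRKY14 became called between mock Mpcoi1 and mock Tak-1. Library totals shifted the median of all genes to -0.15 for the response in Tak-1, and to 0.14 and 0.10 for mock Mpdes6fad5 against mock Tak-1 and mock Mpcoi1. As ratios, counts of genes called between mock Mpcoi1 and mock Tak-1 moved most, with 94 to 616 higher, against 278, and 269 to 891 lower, against 603. Genes with a larger response in Mpcoi1 than in Tak-1 numbered 172 to 447, against 317. The mock levels of MpWRKY6 rest on 5 to 36 reads per library, which limits the precision of its ratios.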

Other observations

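MpWRKY4 (Mp2g05160) had no read in 16 libraries, and 1 and 7 reads in wounded Mpdes6fad5 replicates 2 and 3. The highest Tak-1 values of MpWRKY3 and MpWRKY7, like that of MpWRKY6, came from 1 library: wounded replicate 3 had 7.57 CPM of MpWRKY3 and 10.4 CPM of MpWRKY7, where its mates had at most 1.27 and 2.32 CPM. In mock Tak-1 replicate 3, the same genes had 0.443 and 0.354 CPM, the lowest of that group.

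Mp7g06530, which lies close to MpWRKY10 in the order of the identifiers and has no symbol, responded by 1.33 in Mpdes6fad5 (limma, adjusted p = 3.88e-07), by -0.03 in Mpcoi1 (limma, adjusted p = 0.886) and by 3.19 in Tak-1 (limma, adjusted p = 1.82e-12). MpWRKY10 responded by 2.91, 3.22 and 3.31 in the same genotypes. The neighbour was singled out after its values were seen.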
